A study of Mus musculus with 12 samples.

Results

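Auts2 (ENSMUSG00000029673) and its paralogs Fbrs (fibrosin, ENSMUSG00000042423) and Fbrsl1 (fibrosin-like 1, ENSMUSG00000043323) are the 3 members of the AUTS2 gene family in the mouse. They were found by symbol among the 55487 genes counted in 12 RNA-seq libraries of mouse brain, and all 3 had reads in every library. The libraries came from male mice in which the question was what loss of Auts2 exon 7 does to expression, and they form 4 groups of 3. At postnatal day 0 (P0), whole forebrain of Cmv-cre Auts2-ex7 ko/ko mice, in which Cre recombinase is driven by a promoter active throughout the body, was set against forebrain of littermates labelled BL6 WTLM (wild type). At postnatal day 14 (P14), hippocampus of Nes-cre Auts2-ex7 ko/ko mice, in which Cre is driven in neural progenitors and is inherited by the neurons and glia they form, was set against hippocampus of littermates labelled auts2-ex7-fl-het. The P14 controls thus carry 1 floxed allele, and the labels do not say whether they also carry Cre. Age, tissue, Cre line and control genotype all change together between P0 and P14, so these cannot be told apart in any comparison across the contexts.

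AUTS2 is a nuclear protein that joins a variant form of Polycomb repressive complex 1 (PRC1), built on the ring-finger proteins PCGF3 or PCGF5 together with RING1 or RNF2. In that setting it recruits casein kinase 2 and the acetyltransferase EP300, and the complex has been linked to activation of transcription in neurons, in contrast to the repressive role of classical PRC1. AUTS2 also has a cytoplasmic pool that acts on the actin cytoskeleton of migrating neurons, and human AUTS2 variants cause an intellectual disability syndrome. Fibrosin and fibrosin-like 1 share a conserved domain with AUTS2 and have been found in the same kind of PRC1, which is why a rise of either one after loss of Auts2 would be of interest as compensation.

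The 3 genes differ greatly in size (GRCm38). Auts2 spans 1106012 bp on the minus strand of chromosome 5 (131437333 to 132543344) and has 20 annotated transcripts, 7 of them coding. Fbrsl1 lies on the same chromosome and strand (110361754 to 110448503), 21.0 Mb away, and spans 86750 bp. Fbrs is on the plus strand of chromosome 7 (127479199 to 127491711) and spans 12513 bp. In the annotation the 7th of the 19 exons of the longest transcript is 471 bp long, at chr5:131476553-131477023. The labels give no coordinates for the floxed exon, so its match to this numbering is taken from the exon number alone. This exon makes up 6.36% of the transcript, 30.5% of which lies upstream of it and 63.1% downstream. Of the 20 annotated Auts2 transcripts, 6 have exactly this exon and 9 overlap it. In how many of them it is coding was not examined. At least 2 shorter coding transcripts have their start codon in exon 8, 1536 bp beyond exon 7. The length of exon 7 leaves a remainder of 0 after division by 3. An annotated protein that begins in exon 8 does not need exon 7 as coding sequence. The ends of the deleted segment itself are not given by the labels. The ends of annotated exon 7 and the start of coding sequence in exon 8 read, on the minus strand with the start codon in capitals:
Auts2 exon 7, first 30 bases (chr5:131476994-131477023): atccagagttaggtgttggcgcactacctg
Auts2 exon 7, last 30 bases (chr5:131476553-131476582): cagcagtagcctgagcctcaacagcttaag
Auts2 exon 8, coding start (chr5:131474987-131475016): ATGttcgcccctcccactgctctgcctcct

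Reads of the paralogs can be told apart. The longest run of identical bases between any Auts2 and any Fbrsl1 transcript is 19 bases, well under the 150-base reads. It is shown because it is the longest stretch in which the 2 genes match letter for letter:
Auts2 and Fbrsl1: cctggaaccggctgcaccg
Fbrs and Fbrsl1 share at most 15 identical bases, and the 28 bases shared by Auts2 and Fbrs are a plain AC repeat. The 26 annotated genes that overlap the Auts2 locus had at most 4 counts in any library and none shares an exon with it. Both genes overlapping Fbrs were at 0, and 1 of the pair on the strand opposite Fbrsl1 (Gm42596) had at most 14 unstranded counts, and up to 29 and 38 in the strand columns, which keep reads shared with Fbrsl1, while the other (Gm26711) is not analysed here.

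The P0 libraries held 11247150 to 16796797 counts and those of P14 16830720 to 23340621, and reads fell evenly on both strand columns (49.88 to 49.98% in the first). Levels are given in CPM, read counts set relative to library size after TMM scaling over all 12 libraries. The 7 forebrain markers used were detected in every library, and hindbrain genes summed to at most 1.06 CPM in every library. Cell-type markers also differed between genotypes. At P0 the summed levels of 5 lists did not overlap. Forebrain markers were at 662 to 723 CPM in P0 controls and 824 to 904 in P0 knockouts, choroid plexus markers at 655 to 834 and 886 to 984, and deep-layer cortex markers at 551 to 631 and 633 to 696. Dentate granule cell markers were lower in the P0 knockouts (131 to 149.9 and 105 to 119.5 CPM), as were striatal markers (148 to 177 and 135 to 141). Single genes did not all follow these sums. In P0 knockouts 4 deep-layer genes were higher and 3 lower, 4 choroid plexus genes higher and 1 lower, and 2 striatal genes higher and 4 lower. The choroid plexus gene Ttr alone was at 629 to 801 CPM in P0 controls and 856 to 946 in P0 knockouts. At P14 the 8 dentate granule cell markers summed to 458 to 506 CPM in controls and 288 to 315 in knockouts. Of these 8, 7 were called lower, as were 133 of all 17208 genes tested at P14. Deep-layer cortex markers were at 297 to 311 CPM in P14 controls and 347 to 371 in P14 knockouts, and striatal markers at 48.4 to 66.0 and 83.3 to 146. Choroid plexus markers ran from 148 to 2526 CPM in P14 controls and from 1355 to 2013 in P14 knockouts, with Ttr, the transthyretin gene, at 131 CPM in control replicate 1 and 2405 in control replicate 3. That control replicate 3 also stood apart in its counts. Its chi-square per degree of freedom was 19.3 and 13.2 against the other 2 controls, which gave 5.36 between themselves. Without it 1808 genes were called at P14 instead of 342. At P0, knockout replicate 3 gave 13.2 and 13.1 against the other 2 knockouts, which gave 3.10 between themselves. P0 control replicate 3 gave 8.65 and 8.89, beside 4.03. These P0 replicates 3 held 15457693 (knockout) and 16796797 counts (control), against at most 11755916 in the other P0 libraries. Their library numbers (1415 and 1416) also stand apart from those of the others (1407 to 1410). Number series and depth thus change together and cannot be told apart here. Without P0 knockout replicate 3, 775 genes were called at P0 instead of 147. In such bulk tissue, fewer cells of a type and less RNA per cell cannot be told apart.

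Auts2 was among the more abundant genes in all groups, above 92.4% of the 18189 genes tested over all libraries in P0 controls and above 86.3% in P14 controls. Mean levels were 150.4 ± 12.8 CPM in P0 controls, 169 ± 11 in P0 knockouts, 102 ± 7.26 in P14 controls and 81.8 ± 9.64 in P14 knockouts (SD, n = 3 each). Fbrsl1 was at 69.1 ± 3.53, 82.8 ± 6.30, 76.2 ± 4.98 and 84.4 ± 5.0 CPM in the same order of groups (SD, n = 3 each). Fbrs was the lowest and flattest, at 49.4 ± 4.63, 52.5 ± 7.45, 44.5 ± 3.95 and 50.2 ± 4.27 CPM (SD, n = 3 each). For Auts2 the order was P0 knockout, P0 control, P14 control, P14 knockout. The 4 Fbrs groups all overlapped one another.

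Transcript length sets how the genes rank against each other. Per kilobase of the longest transcript (7409 bp for Auts2, 4166 for Fbrs, 4720 for Fbrsl1), P0 controls had 20.3 CPM of Auts2, 14.7 of Fbrsl1 and 11.9 of Fbrs. At P14, controls had 13.7 CPM per kilobase of Auts2, 16.1 of Fbrsl1 and 10.7 of Fbrs, so that Fbrsl1 stood above Auts2 by this length. The longest coding transcript of Auts2 is shorter, at 5392 bp. Per kilobase of the longest coding transcript, P14 controls had 18.9 CPM of Auts2 and 16.1 of Fbrsl1, so that Auts2 stood above Fbrsl1. By that length P0 controls had 27.9 of Auts2 and 14.7 of Fbrsl1. Per kilobase of all annotated exons joined together, which for Auts2 come to 22890 bp, Auts2 was the lowest of the 3 in both control groups, with 6.57 at P0 and 4.45 at P14 beside 10.1 and 9.14 for Fbrs. The ranking between genes therefore rests on which length is used, while the comparisons of each single gene between groups do not.

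**Figure D1:**
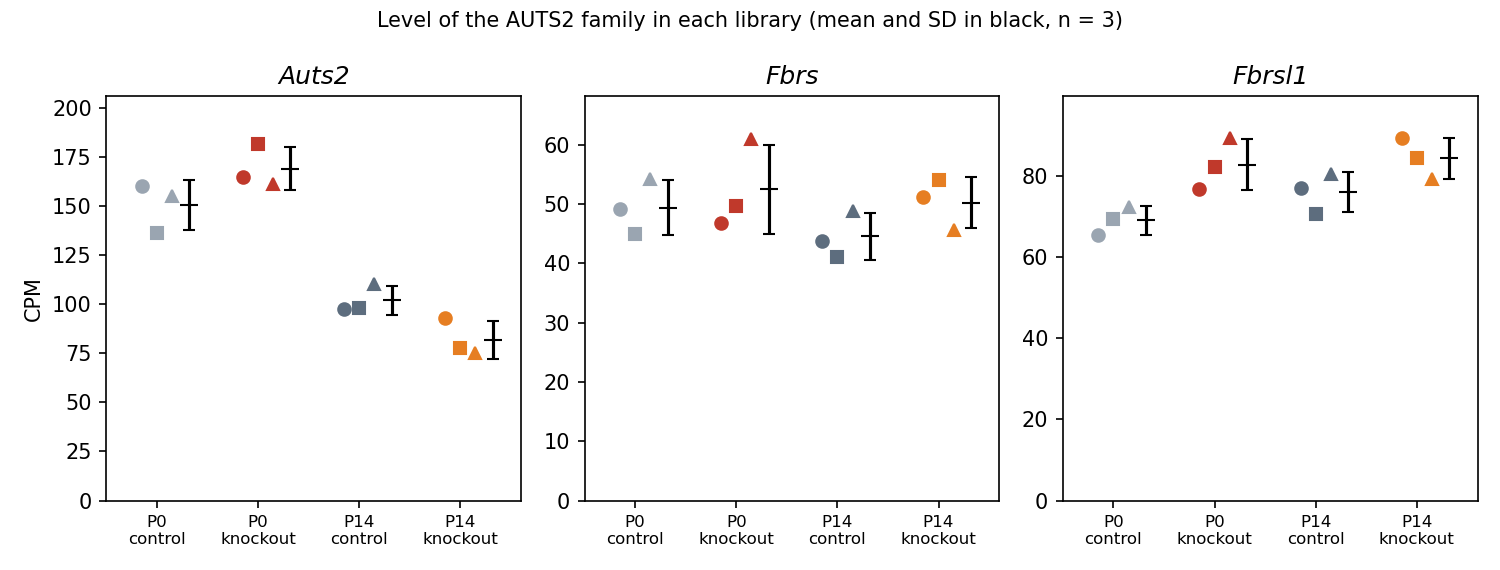
Level of Auts2, Fbrs and Fbrsl1 (CPM, linear axis from 0) in each of the 12 libraries, by group; circles, squares and triangles are replicates 1, 2 and 3, and black bars are the mean and SD of 3. Auts2 stood lower in all 6 P14 libraries (75.1 to 110 CPM) than in all 6 P0 libraries (136 to 181), while Fbrs and Fbrsl1 covered much the same range in both contexts.

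Auts2 counts stayed high in the knockout libraries of both contexts. In P0 forebrain the knockouts had 164, 181 and 161 CPM and the controls 160.2, 136 and 155. Every knockout was above every control, but the nearest were 160.8 and 160.2 CPM, and with TMM factors from the 6 P0 libraries alone the groups overlapped. The log2 fold change was 0.16 ± 0.08 (SE; 95% interval -0.02 to 0.34; edgeR quasi-likelihood test, adjusted p = 0.362). Of all genes tested, 0.909% were called at P0, and 21.8% had groups that did not overlap.

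In P14 hippocampus the difference had the other sign. Knockouts had 92.9, 77.5 and 75.1 CPM of Auts2 and controls 97.4, 97.8 and 110, again without overlap. Auts2 was 19.0% lower in knockouts (95% interval of the change -29.2% to -7.18%), a log2 fold change of -0.30 ± 0.09 (SE) that did not pass correction in edgeR (adjusted p = 0.111). At P14, 1.99% of genes were called, 15.2% had an unadjusted p under 0.05, as Auts2 did, and 10.6% had all knockouts below all controls. Without the filter on low counts the same test gave an adjusted p of 0.0209, and without P14 control replicate 3, the highest control, the log2 fold change was -0.24 (adjusted p = 0.0829). In these libraries the sum of the dentate granule markers given above was lower too, while those of the deep-layer cortex and striatal markers were higher. The part of these lists in the Auts2 difference was not tested.

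Exon 7 itself accounts for a log2 change of only -0.10 in the length of the longest transcript, and the counts cover the gene as a whole. The summed count therefore does not check the genotype labels, and use of exon 7 or of single isoforms is not analysed here.

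Set against each other, the genotype effects on Auts2 differed between contexts by -0.48 ± 0.13 on the log2 scale (P14 minus P0, SE; 95% interval -0.75 to -0.21). This interaction missed the threshold in edgeR (adjusted p = 0.0565), where 1.79% of genes passed and 15.3% had an unadjusted p under 0.05. It passed in DESeq2 (adjusted p = 0.0284), without the low-count filter (0.00479), without P14 knockout replicate 1 (0.0327) and without P0 knockout replicate 3 (0.029). Knockouts above controls at P0 and below at P14, with no overlap in either, was a pattern found in 0.825% of 15643 genes.

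Fbrsl1 was the paralog with the larger P0 difference. Knockouts had 76.8, 82.3 and 89.4 CPM and controls 65.4, 69.5 and 72.5, so that all 3 knockouts were above all 3 controls. Fbrsl1 was 19.3% higher (95% interval 5.33% to 35.2%), a log2 fold change of 0.25 ± 0.08 (SE; edgeR adjusted p = 0.155). Knockouts stood above controls without overlap in 10.7% of genes at P0, and 16.1% of genes had, like Fbrsl1, an unadjusted p under 0.05. Of the marker lists given above, 7 of 7 forebrain genes were higher in those P0 knockouts (median log2 fold change 0.30, 1 called) and 7 of 7 dentate granule genes tested were lower (median -0.54, 0 called). The part of these and of the choroid plexus, deep-layer and striatal genes was not tested. Fbrsl1 also shares chromosome 5 with the targeted Auts2 locus, 21.0 Mb away. The part of this position in the Fbrsl1 difference was not tested in either context.

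The P0 libraries carry numbers of 2 series, 4 libraries in one and 2 in the other, each with both genotypes. The second series is P0 knockout replicate 3 and P0 control replicate 3, the deeper libraries named above. Within the first series, 2 against 2, the Fbrsl1 difference was 0.24 (edgeR adjusted p = 0.048), a setting chosen after the data were seen in which 2107 genes were called instead of 147. With the series as a term it was 0.25 (adjusted p = 0.0743).

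At P14, Fbrsl1 stood at 89.4, 84.4 and 79.4 CPM in knockouts and 77.1, 70.8 and 80.6 in controls, with 1 knockout below the highest control. The log2 fold change was 0.16 ± 0.08 (SE; 95% interval -0.01 to 0.33; edgeR adjusted p = 0.354). A correction for GC content reduced it to 0.08, and without P14 control replicate 3 it was 0.21 (adjusted p = 0.073). Deep-layer cortex and striatal markers were higher and dentate granule markers lower in these knockouts (values above), and their part was not tested. Averaged over both contexts, knockouts had 15.2% more Fbrsl1 (95% interval 6.0% to 25.3%), or 0.20 ± 0.06 on the log2 scale. This average missed the threshold in edgeR (adjusted p = 0.0713, with 1.87% of genes called and 15.2% at an unadjusted p under 0.05) and passed it in DESeq2 (adjusted p = 0.036) and without P14 control replicate 3 (0.0388). The effects in the 2 contexts differed by -0.11 (95% interval -0.35 to 0.13; edgeR adjusted p = 0.698).

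Fbrs, which encodes fibrosin, overlapped between genotypes in both contexts. P0 knockouts had 46.9, 49.6 and 60.9 CPM and P0 controls 49.1, 44.9 and 54.1. The P0 log2 fold change was 0.08 ± 0.11 (SE; 95% interval -0.15 to 0.32; edgeR adjusted p = 0.755), and it was -0.04 without P0 knockout replicate 3, the library at 60.9 CPM.

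At P14 Fbrs was at 51.1, 54.0 and 45.6 CPM in knockouts and 43.7, 41.1 and 48.8 in controls. Its log2 fold change was 0.19 ± 0.09 (SE; 95% interval -0.01 to 0.38; edgeR adjusted p = 0.35). Without P14 control replicate 3, the highest control, it was 0.27 with an adjusted p of 0.0469, and with the GC correction it was 0.10. Averaged over the contexts, the difference was 0.13 with an interval from -0.02 to 0.29 (adjusted p = 0.425).

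Put as bounds on compensation, the 95% intervals of the change in Fbrs ran from -9.91% to 24.4% in P0 knockouts and from -0.546% to 30.3% in P14 knockouts. For Fbrsl1 the P14 interval ran from -0.572% to 25.5%. The highest upper bound of either paralog was 35.2%, that of Fbrsl1 at P0, and neither paralog was called in either context.

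**Figure D2:**
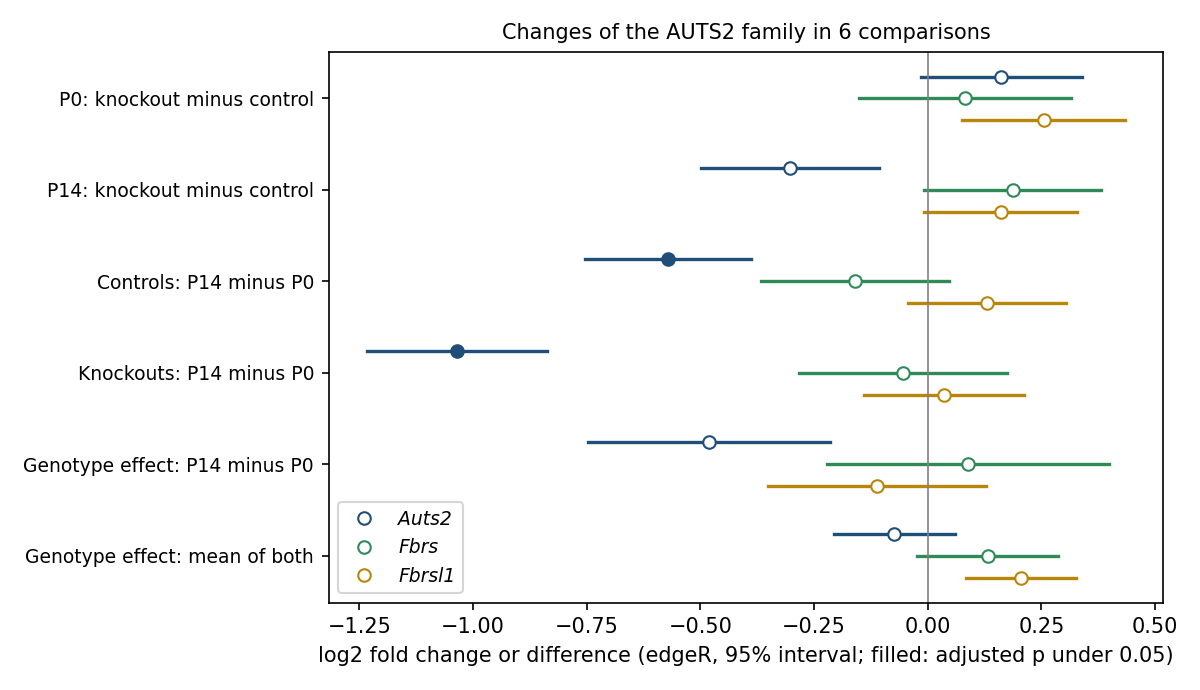
Estimated log2 fold change or difference (x axis) of Auts2, Fbrs and Fbrsl1 in 6 comparisons, with 95% intervals from edgeR; filled points have an adjusted p under 0.05. The 2 filled points are the lower Auts2 level at P14 in controls (-0.57) and in knockouts (-1.04); all points for Fbrs and Fbrsl1 are open.

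The balance of paralog to Auts2 within a library does not depend on scaling between libraries. Per kilobase of the longest transcript, the ratio of Fbrsl1 to Auts2 at P14 was 1.51, 1.71 and 1.66 in knockouts and 1.24, 1.14 and 1.15 in controls. All 3 knockouts were above all 3 controls, by a factor of 1.38 in the mean of log values (exact two-sided permutation p = 0.1, the smallest that 3 against 3 can give). At P0 the same ratio was 0.733, 0.712 and 0.872 in knockouts and 0.641, 0.802 and 0.733 in controls (exact p = 0.6).

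The ratio of Fbrs to Auts2 showed the same arrangement. At P14 it was 0.979, 1.24 and 1.08 in knockouts and 0.798, 0.746 and 0.788 in controls, a factor of 1.41 (exact p = 0.1). At P0 it was 0.507, 0.486 and 0.673 in knockouts and 0.545, 0.587 and 0.621 in controls (exact p = 0.7). The mean ratio of Fbrsl1 to Fbrs was 1.24 in P0 controls and 1.40 in P0 knockouts (exact p = 0.2), and 1.51 in P14 controls and 1.49 in P14 knockouts (exact p = 0.8).

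Both paralogs summed and set over Auts2 came to 1.95 in P14 controls and 2.73 in P14 knockouts, with ranges of 1.88 to 2.04 and 2.49 to 2.95. At P0 the means were 1.31 and 1.33. In the P14 hippocampus this shift joined a lower Auts2 denominator to somewhat higher paralog counts, neither of which was called on its own. Over both contexts, the log2 ratio of Fbrsl1 to Auts2 was 0.28 higher in knockouts (exact permutation p = 0.03 within contexts, Benjamini-Hochberg 0.24 over 12 ratio tests), and that of Fbrs to Auts2 0.20 higher (exact p = 0.145).

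**Figure D3:**
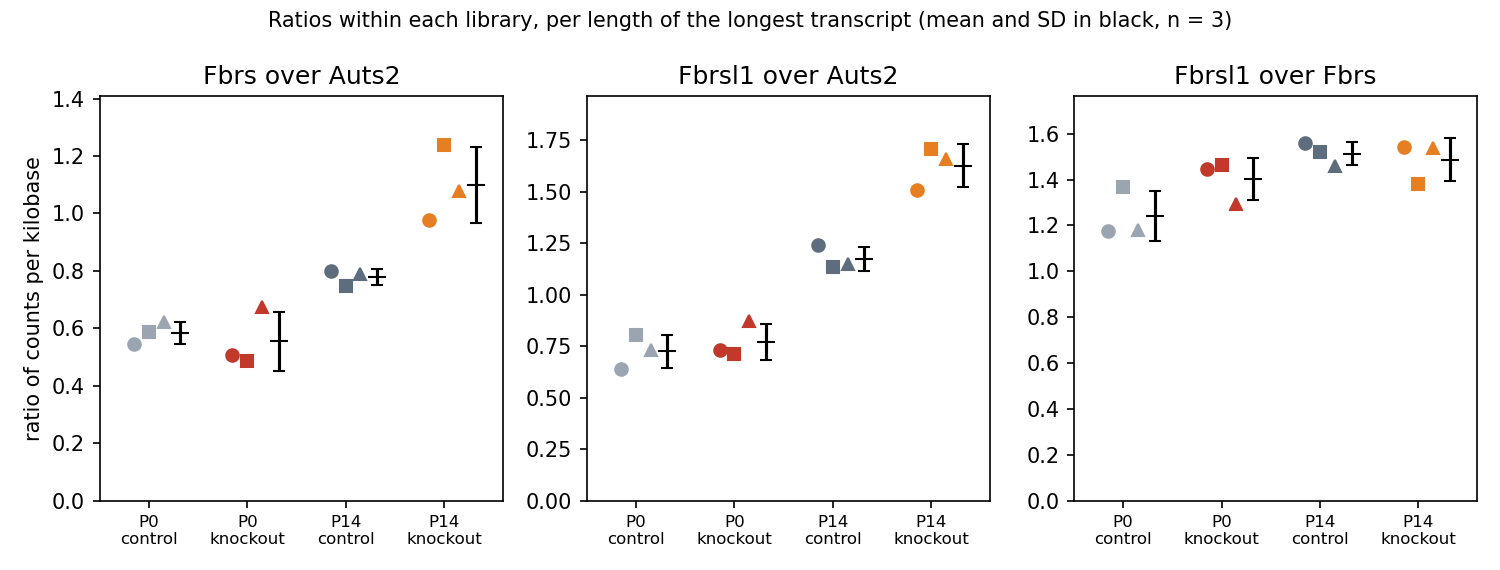
Ratio of counts per kilobase of the longest transcript within each library (y axis from 0) for Fbrs over Auts2, Fbrsl1 over Auts2 and Fbrsl1 over Fbrs; symbols are replicates and black bars the mean and SD of 3. In the P14 knockouts the ratios to Auts2 (0.979 to 1.24 for Fbrs, 1.51 to 1.71 for Fbrsl1) lie above those of the P14 controls (0.746 to 0.798 and 1.14 to 1.24).

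The one change of the family that passed the test was that between contexts. Auts2 was lower in P14 hippocampus than in P0 forebrain, by 32.7% in controls (log2 fold change -0.57 ± 0.09, SE; edgeR adjusted p = 2.38e-05) and by 51.2% in knockouts (-1.04 ± 0.09; adjusted p = 3.46e-07). A lower level was called for 32.2% of genes in the controls and 33.0% in the knockouts, so a call in this comparison is common. Fbrs was not called in either (-0.16 with adjusted p = 0.163 in controls, -0.05 with 0.666 in knockouts), nor was Fbrsl1 (0.13 with 0.173 and 0.04 with 0.717). In controls, Fbrs passed under upper-quartile scaling (-0.25, adjusted p = 0.0353) and without P14 control replicate 3 (-0.22, adjusted p = 0.0445). In knockouts, the small Fbrs and Fbrsl1 values changed sign when single libraries were left out.

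Within P14, Fbrs and Fbrsl1 ran together over the 6 libraries (Pearson r = 0.898, exact permutation p = 0.0139; Spearman rho = 0.943, exact p = 0.0167; Benjamini-Hochberg 0.0833 and 0.1 over 6 relations). Leaving out the 2 libraries farthest from the median gave r = 0.903. Auts2 correlated with Fbrs at r = -0.30 (rho = -0.37) and with Fbrsl1 at -0.25 (rho = -0.31) in the same libraries. The exact permutation p values of these r were 0.547 and 0.638. Without the 2 farthest libraries they became 0.08 for Fbrs and -0.19 for Fbrsl1. At P0 the r values were 0.27 (rho = 0.26) for Auts2 with Fbrs, 0.50 (rho = 0.66) for Auts2 with Fbrsl1 and 0.63 (rho = 0.60) for Fbrs with Fbrsl1, the last falling to -0.15 without the 2 farthest libraries. The libraries of a context share its scaling, and both genotypes enter each r.

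The strand columns gave a separate view of the same reads. Over all genes, each column held close to 50% of the reads. Fbrsl1 had 50.08 to 52.83% in the first strand column in the 6 knockouts and 48.7 to 49.67% in the 6 controls, with no overlap. This pattern was noticed after the values were seen and has no test, and 0.170% of 18189 genes (31) separated the genotypes in this way. With reads split evenly, some genes separate so at random. How many was not computed, so the split is not read as a trait of Fbrsl1. Pooled, the first column held 4380 of the Fbrsl1 reads and the second 4163 in knockouts, against 3546 and 3697 in controls. Auts2 (48.65 to 50.75% and 49.04 to 50.74%) and Fbrs (47.34 to 54.1% and 46.33 to 52.31%) overlapped. For Fbrsl1 the strand columns together held 13 to 58 reads more than the unstranded count, since reads that also overlap a gene on the other strand enter one of them. Counted by the larger strand column, the P0 log2 fold change of Fbrsl1 was 0.17 and the average over contexts 0.14 (adjusted p = 0.337).

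**Figure D4:**
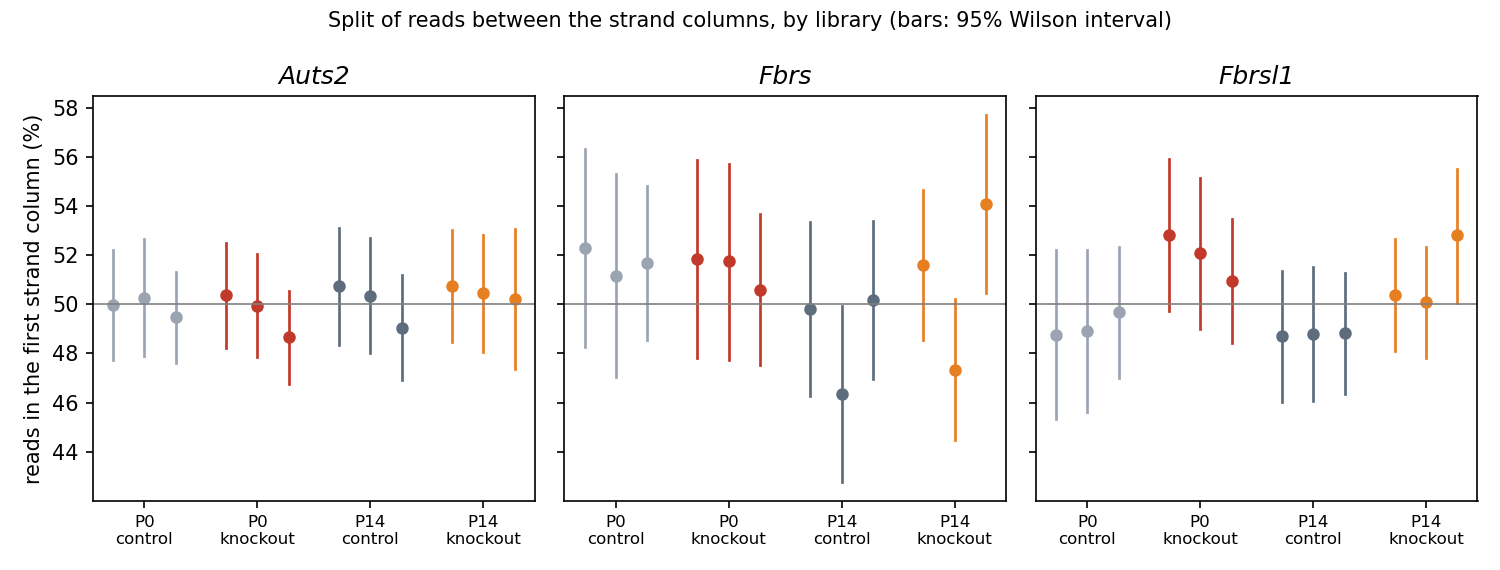
Percent of a gene's strand-assigned reads in the first strand column (y axis, starting above 0) for each library, by group, with 95% Wilson intervals that cover counting error only. For Fbrsl1 all 6 knockouts lie above 50% and all 6 controls below it, although single intervals overlap. This was noticed after the values were seen, was not tested, and is not read as a trait of Fbrsl1, since some genes separate so at random. Auts2 and Fbrs show no such split.

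The partners of AUTS2 in variant PRC1 were taken as a list of 11 genes. None was called with genotype in either context, where only 0.909% (P0) and 1.99% (P14) of all genes were called, so that no call among 11 genes is near the background. Their median log2 fold change was 0.02 at P0 and -0.03 at P14, beside 0.00 and -0.01 for all genes tested. Pcgf3 and Pcgf5 encode the ring-finger subunits that define the AUTS2-containing complexes. Pcgf3 had a log2 fold change of -0.08 at P0 (edgeR adjusted p = 0.639) and 0.08 at P14 (0.704). Pcgf5 had -0.42 ± 0.16 (SE) at P0, the value farthest from 0 in the list, with an adjusted p of 0.22, and 0.13 at P14 (0.697).

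Between contexts, by contrast, all 11 were called in controls (4 higher, 7 lower at P14) and 10 in knockouts (4 higher, 6 lower), where 64.7% and 66.5% of all genes were called. Pcgf3 fell by 0.64 on the log2 scale in controls and by 0.47 in knockouts, while Pcgf5 rose by 0.41 and 0.96. The E3 ligases divided too: Rnf2 fell by 0.97 and 1.14, and Ring1 rose by 0.69 and 0.32. Of the paralogous adaptors, Rybp fell by 0.71 and 0.65 and Yaf2 rose by 0.50 and 0.63. Nrf1, a transcription factor that binds with AUTS2 complexes in neurons, fell by 0.47 and 0.70. Of the casein kinase 2 subunits, Csnk2a1 fell by 0.27 and 0.38, Csnk2b by 0.23 and 0.32, and Csnk2a2 rose by 0.21 and 0.19. Ep300 fell by 0.38 in controls and was not called in knockouts.

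Genes with a course like that of each member over the 12 libraries were ranked by Pearson r of log2 CPM among 10887 other genes whose log2 CPM averaged 3 or more. Closest to Auts2 were Slf2 (0.983), Zfp266 (0.981) and Brca2 (0.978). Closest to Fbrs were Zswim8 (0.888), P3h3 (0.884) and Zfp574 (0.884), and to Fbrsl1 Nlgn2 (0.919), Scaf1 (0.878) and Ptprs (0.878). The libraries share 2 contexts that differ in age and tissue, and likeness within a context was not measured. The 3 genes closest to Auts2 had, like it, log2 fold changes above 0 at P0 and below 0 at P14: 0.12 and -0.17 for Slf2, 0.18 and -0.19 for Zfp266, and 0.15 and -0.23 for Brca2. Both genotypes entered the ranking, so these shared signs are favoured by the way the genes were picked and are no separate result. None of these 9 genes was called with genotype in either context.

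**Figure D5:**
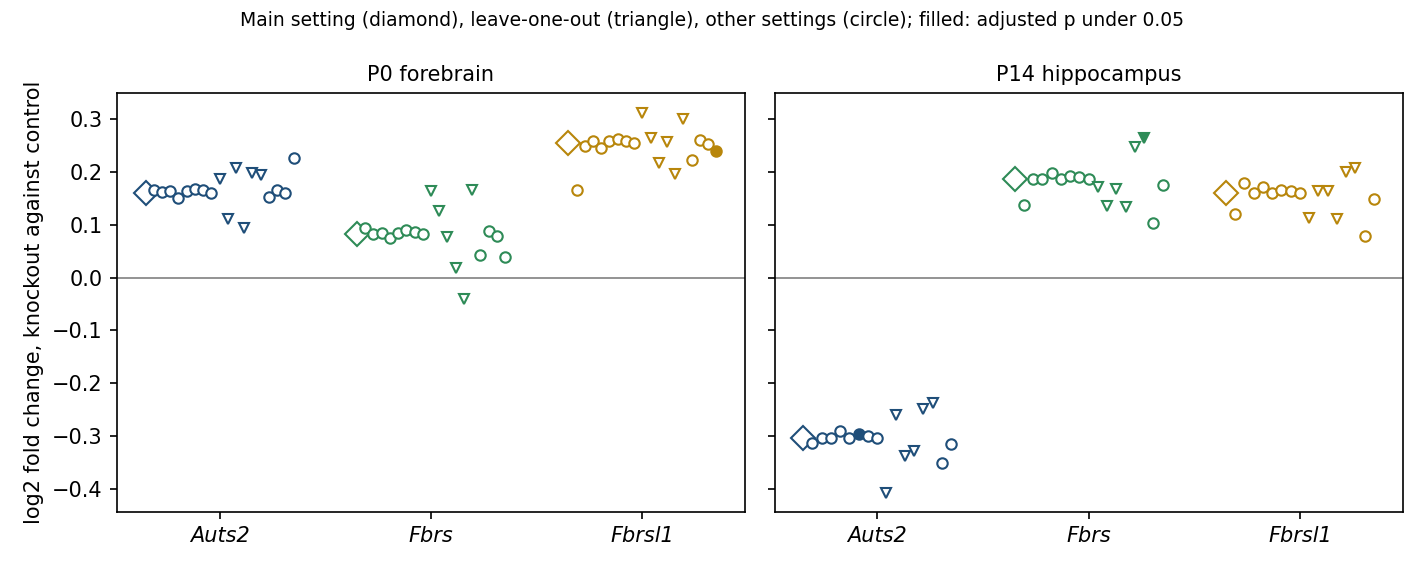
Log2 fold change of knockout against control (y axis) for each member under the main setting (diamond), with single libraries left out (triangles) and under other settings (circles), at P0 and P14; filled symbols have an adjusted p under 0.05. Auts2 kept its sign in each context (0.09 to 0.23 at P0, -0.41 to -0.24 at P14), and only 1 symbol per context and gene at most is filled.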

How the data were processed

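The authors deposited STAR gene counts (whole reads per gene) for 12 libraries, in an unstranded column and 2 strand columns. The submitters' processing notes name STAR 2.7.5a, edgeR 3.12 and the builds mm10 and GRCm38. The labels describe Trizol RNA treated with DNase I, TruSeq libraries and 150-base pairs. The unstranded counts were used as deposited, without the summary rows for unmapped and unassigned reads.

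Genes were filtered with filterByExpr, scaled by TMM and tested with the quasi-likelihood F test of edgeR 4.0.16 (R 4.3.3) over all genes, with Benjamini-Hochberg adjustment at 0.05. The genotype tests used the 6 libraries of a context, the context tests the 6 libraries of a genotype, and the interaction and average all 12. The code was tested on simulated data. Within-library ratios were compared by exact two-sided permutation tests. Gene models and sequences came from GENCODE vM21 (GRCm38), and GC content from the longest transcript. The members and lists were chosen with earlier results of these data known. Besides the 3 members, genes named were PRC1 partners called in a comparison, Pcgf3 and Pcgf5, and the 3 genes most correlated with each member. Nothing in the labels says how the animals of a group are related beyond being littermates of the other genotype, so p-values measure the spread between these samples. Replicates were numbered in accession order. Alternatives covered DESeq2 1.42.0, scaling, filters, strand columns, GC content, gene length and each library left out. One gene of the forebrain marker list is not reported here and was left out of its sums and counts.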

Additional observations from a re-analysis of the deposited data

How the results depend on the processing

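For the changes and ratios of the 3 genes, 409 of 438 alternative values counted as the same, 12 passed the threshold, 2 lost it and 15 changed sign. The threshold was an adjusted p of 0.05 for changes and an unadjusted exact p of 0.05 for ratios over both contexts. Ratios within a context had no threshold and counted as the same when they kept their direction and moved by less than the pooled SD. The 2 that lost the threshold were ratios of Fbrsl1 to Auts2, at Benjamini-Hochberg 0.24 in the main setting. The cause of each such change was not tested. Auts2 passed at P14 without the low-count filter (-0.30, adjusted p = 0.0209), and its interaction passed with DESeq2 (-0.47) and without the filter (-0.50). The Fbrsl1 average passed with DESeq2 (0.20), and its P0 value in the first library series alone (0.24). Upper-quartile scaling made Fbrs pass between control contexts (-0.25) and turned Fbrsl1 between knockout contexts (-0.040). With single libraries left out, log2 values ranged as follows. Fbrs ran from -0.041 to 0.17 at P0, 0.13 to 0.27 at P14, -0.22 to -0.084 between control contexts and -0.13 to 0.073 between knockout contexts (-0.041 without P0 knockout replicate 3 at P0; 0.018 and 0.073 without P14 or P0 knockout replicate 3 between knockout contexts). Fbrsl1 ran from -0.019 to 0.098 between knockout contexts (-0.0023 without P14 and -0.019 without P0 knockout replicate 1) and 0.17 to 0.23 on average. The Auts2 interaction ran from -0.58 to -0.41. Over both contexts the ratio of Fbrsl1 to Auts2 ran from 0.23 to 0.32 (exact p = 0.055 without P0 control replicate 1 and 0.06 without P0 knockout replicate 3). That of both paralogs ran from 0.18 to 0.28. Within a context, the ratio of both paralogs to Auts2 at P0, close to 0 (-0.0033), was 0.013 with either other length and ran from -0.12 to 0.069, Fbrs to Auts2 at P0 from -0.23 to 0.0018, Fbrsl1 to Auts2 at P0 from -0.00060 to 0.17 and Fbrsl1 to Fbrs at P14 from -0.054 to 0.027.

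Counts of genes called moved far more: 147 at P0 became 374 with DESeq2, 625 without the filter, 50 with non-robust fitting, 84 on the summed strand columns, 376 with the GC offset, 284 in 1 fit on all libraries, 465 with the series term and 1 to 775 with a library left out. The 342 at P14 became 534, 814 and 104 to 1808 (DESeq2, no filter, libraries left out). The 326 of the interaction became 205 with the larger strand column, 531, 646 and 125 to 905, and the 340 of the average 224, 653, 742 and 162 to 521. No paired analysis was possible because the labels give no replicate numbers. Raw counts behind each library's value ran from 555 for Fbrs to 2806 for Auts2, and 3 libraries a group limit what could be called.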
